A study of Caenorhabditis elegans with 4 samples.

Results

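The left arm of chromosome V of Caenorhabditis elegans was examined for sites bound by ZFP-1, as listed by chromatin immunoprecipitation and sequencing (ChIP-seq). Its members are the peaks of V in the series-wide list whose midpoint lies below 5.9 Mb on build WS220. This position rule gave 429 of the 2043 series-list peaks of V, and of 13878 in all. The same window held 114 of 3559 peaks in the list of ChIP replicate 1 and 231 of 6371 in that of replicate 2. The study used wild-type N2 worms, males and hermaphrodites mixed, collected at the third larval stage (L3) at 20 degrees Celsius, and has 2 ZFP-1 ChIP samples and 2 input DNA samples. The ChIP antibody was an affinity-purified rabbit polyclonal against ZFP-1. Whole larvae were used, so the lists average over all tissues. Nothing in the labels says that the replicates were separate cultures, and the spread between them may be technical.

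ZFP-1 is a nuclear protein with PHD zinc fingers, related to human AF10 (MLLT10), and it works together with DOT-1.1, the worm counterpart of the histone H3 lysine 79 methyltransferase DOT1L. The complex is known to bind mainly at the promoters of expressed genes. The arms of worm autosomes recombine more often, carry more repeats and more heterochromatin marked by methylation of histone H3 lysine 9, and hold fewer widely expressed genes than the centres. The arms of V are also known for large families of chemoreceptor genes, many of which are expressed in few cells. No genome or gene annotation on WS220 was used here, so sites are named by position, with no gene and no sequence.

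The left arm was compared with the centre of V, from 5.9 to 16.5 Mb, and with the right arm, from 16.5 Mb to the last base under any peak of V (20920615). Peaks of the series list are narrow and those of the replicate lists broad, and their scores are the authors' own on an unstated scale. Scores were therefore ranked only within 1 list, and those of separate lists stand side by side without a comparison of their size, apart from a correlation between the replicates. Depth is unknown, and no peak list of the input was analysed here, so no input background stands beside these values.

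ZFP-1 peaks on the left arm were sparser than in the centre of V and denser than on the right arm, in all 3 lists. In the series list there were 72.7 peaks per Mb on the left arm (exact Poisson 95% interval 65.99 to 79.9), 133 in the centre (127 to 141) and 45.2 on the right arm (39.2 to 51.97). Replicate 1 held 19.3 peaks per Mb on the left arm (15.9 to 23.2), 33.7 in the centre (30.3 to 37.4) and 11.5 on the right arm (8.59 to 15.2). In replicate 2, the same densities were 39.2 (34.3 to 44.5), 58.3 (53.8 to 63.1) and 20.1 (16.2 to 24.8). The order of the parts was the same in both replicates, and no interval of the left arm reached that of another part. As a ratio to the centre, left arm density was 0.55 for the series list (95% interval 0.49 to 0.61), 0.57 for replicate 1 (0.46 to 0.71) and 0.67 for replicate 2 (0.57 to 0.78). Against the right arm, the ratio was 1.61 (1.36 to 1.91), 1.67 (1.19 to 2.38) and 1.94 (1.52 to 2.51) in the same order.

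Exact two-sided binomial tests of these counts gave adjusted p-values of 1.6e-29, 4.14e-07 and 5.24e-07 against the centre, and 1.5e-07, 0.00591 and 2.26e-07 against the right arm, each time for the series list first and then for replicates 1 and 2. All p-values were adjusted by Benjamini-Hochberg over the 20 tests made here. These tests and intervals treat peaks as independent, which neighbouring peaks are not, so the p-values are too small. The intervals cover counting error only.

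**Figure D1:**
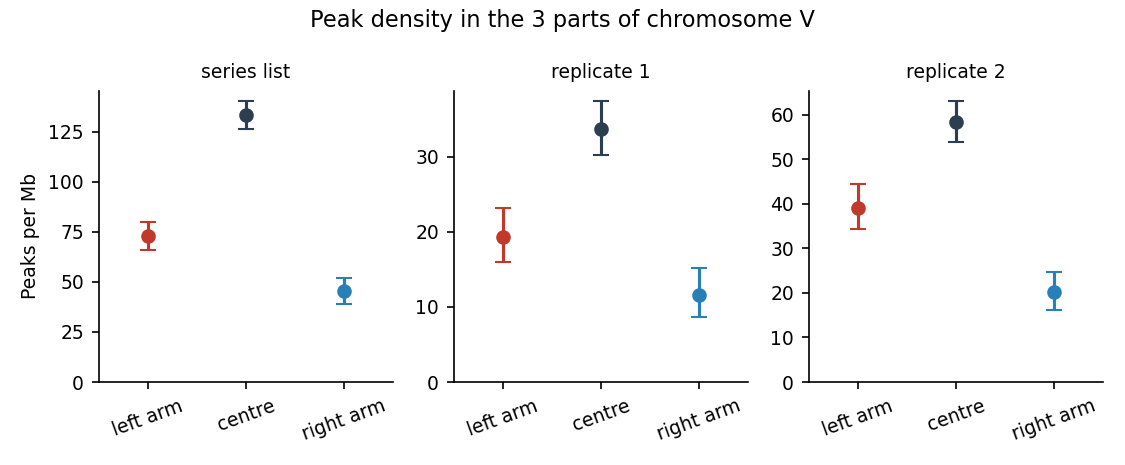
Peaks per Mb in the left arm, centre and right arm of chromosome V, one panel for each list. Points are densities and bars exact Poisson 95% intervals; each panel has its own axis from 0. The left arm lies between the centre and the right arm in each list, at 72.7, 19.3 and 39.2 peaks per Mb.

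Covered sequence gave the same order. Series-list peaks covered 164 kb of the left arm, or 2.78%, against 5.88% of the centre and 1.69% of the right arm. In replicate 1 the covered shares were 2.64%, 5.97% and 1.40%. Replicate 2 covered 5.35%, 10.3% and 2.61%. The left arm was thus the middle of the 3 parts by covered bases in each list.

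Density was uneven within the left arm. In its 11 whole bins of 500 kb, series-list counts ran from 15 to 47 with a median of 39 (mean 33.4 ± 11.2, SD over bins). The 21 whole bins of the centre ran from 24 to 105 with a median of 68, and the 8 of the right arm from 12 to 31 with a median of 19. The left arm bins ran from 4 to 14 in replicate 1 and from 8 to 28 in replicate 2. The sparsest 500 kb of the left arm was from 2500001 to 3000000, with 15 series-list peaks, 4 in replicate 1 and 8 in replicate 2. That bin was the lowest of the arm in all 3 lists. Among these whole bins, the densest in the series list was from 5000001 to 5500000, with 47 peaks. It held 10 peaks in replicate 1 and 19 in replicate 2, both below their highest bins. The bin from 5500001 to 6000000 is shared with the centre and was left out of these counts. It held more, with 71 series-list peaks, 13 in replicate 1 and 28 in replicate 2.

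**Figure D2:**
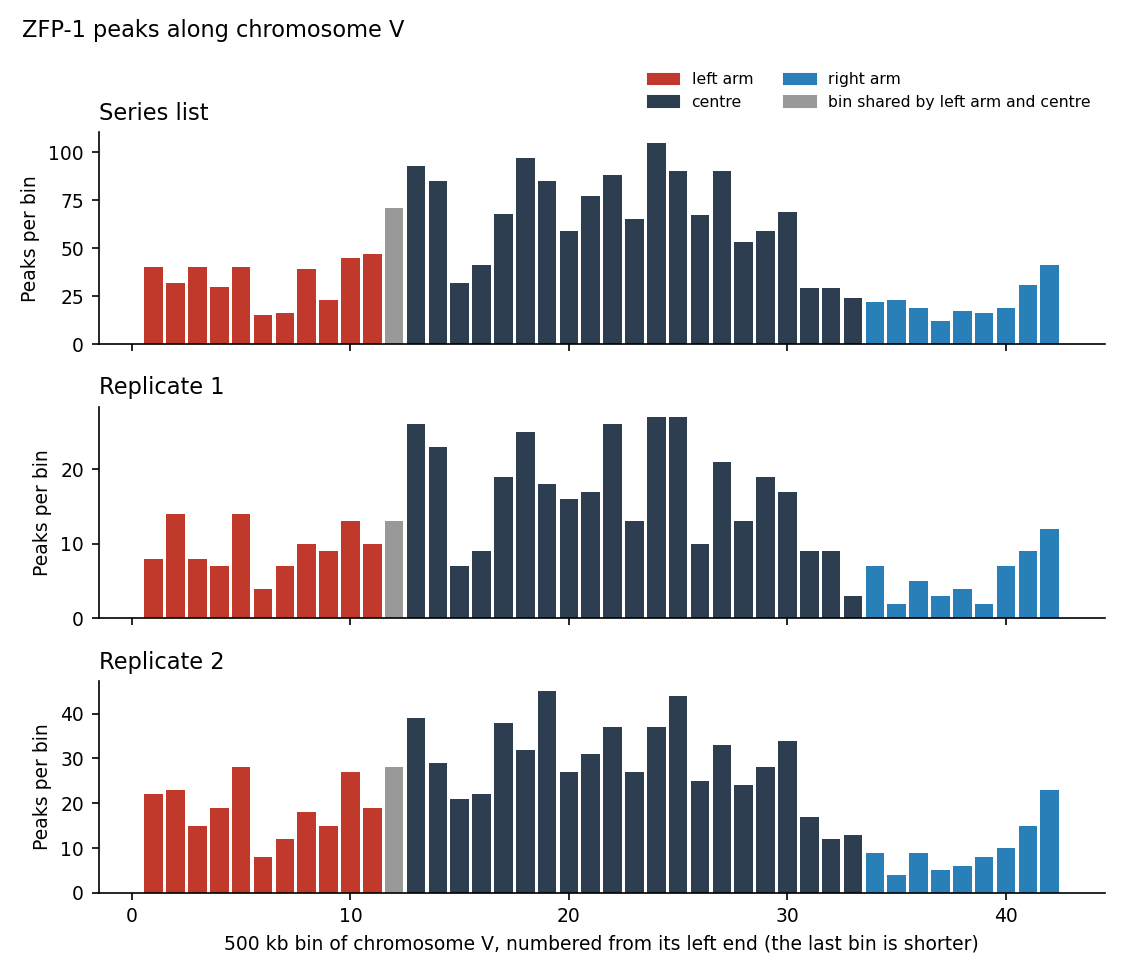
Number of peaks in each 500 kb bin of chromosome V, numbered from the left end, in the series list, replicate 1 and replicate 2. Whole left arm bins hold 15 to 47 series-list peaks. Of these, bin 6 (15, 4 and 8 peaks) is the lowest in each list. The bin shared by the left arm and the centre, with 71 series-list peaks, is grey.

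The series list rose in density before the end of the arm, and the replicate lists rose less. From 0 to 5 Mb, the 5 steps of 1 Mb held 72, 70, 55, 55 and 68 series-list peaks. From 5 to 5.9 Mb there were 109 peaks, or 121 per Mb, against 64 per Mb from 0 to 5 Mb. Over the same 2 stretches replicate 1 had 22.2 and 18.8 peaks per Mb, and replicate 2 had 48.9 and 37.4. The additional series-list peaks near the end of the arm included many low-scoring ones. From 5 to 5.9 Mb the median series score was 10.99, against 25.4 from 0 to 5 Mb, and 22.9% of peaks were met in both replicates (95% interval 15.4 to 31.97%), against 39.4% (33.99 to 44.96%). These 2 stretches were set apart after their values were seen, and their difference was not tested.

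The series-list peaks on either side of the limit of 5.9 Mb were weak ones. The last inside it was from 5875869 to 5876080, with a series score of 11.1. The first outside was from 5932372 to 5932630, with a score of 4.75. Neither met a replicate peak. At the other end, the first series-list peak began at base 1 of V, scored 3.31 and met a replicate 1 peak from 2 to 876 (score 72.2) but none in replicate 2.

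Long peak-free stretches took up most of the left arm. A long stretch is one of at least 20 kb between neighbouring peaks of 1 list. The series list left 85 of them on the left arm, and they spanned 4.20 Mb, or 71.1% of it. In the centre such stretches made up 48.9% of the sequence and on the right arm 82.4%. In replicate 1 the shares were 90.2% on the left arm, 81.03% in the centre and 94.8% on the right arm. In replicate 2 they were 78.7%, 64.8% and 91.1%. A list with fewer peaks has longer gaps, so these shares are compared between parts of 1 list and not between lists. The order of the 3 parts was the same in each list, and it follows that of the densities.

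Stretches of at least 50 kb gave the same order. In the series list they numbered 32 on the left arm and made up 42.6% of it, against 16.3% of the centre and 62.2% of the right arm. The corresponding shares were 84.4%, 57.6% and 89.96% in replicate 1, and 56.3%, 36.3% and 75.1% in replicate 2. Stretches of at least 100 kb numbered 7 on the left arm, 3 in the centre and 12 on the right arm in the series list. Of the 59 bins of 100 kb on the left arm, 4 had no series-list peak, and none of these 4 held a peak in either replicate. All left arm replicate peaks meet a series-list peak, so this is no independent check. In the series list none of the 106 such bins of the centre was empty, and 3 of 44 on the right arm were. The shares of the left and right arms were thus alike, 6.78% and 6.82%. Empty bins of the left arm, centre and right arm numbered 14, 9 and 19 in replicate 1, and 6, 2 and 12 in replicate 2.

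**Figure D3:**
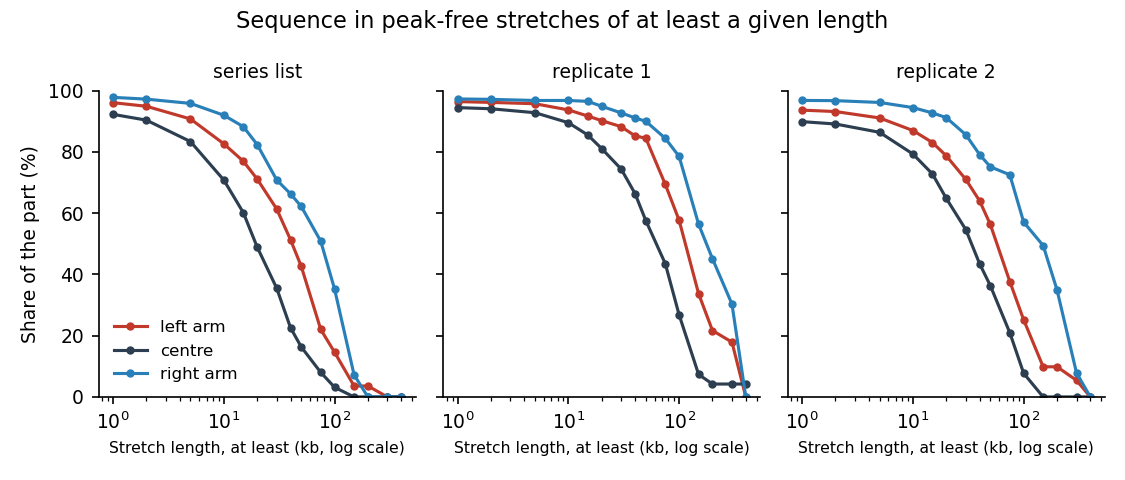
Share of each part of chromosome V, in percent, that lay in peak-free stretches of at least the length on the log-scaled horizontal axis, for the series list and both replicates. At 20 and 50 kb the left arm curve lies between the centre and the right arm in each list, for example 71.1% against 48.9% and 82.4% at 20 kb in the series list.

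The longest stretch without a series-list peak on all of V was on the left arm, from 2877699 to 3088321, a length of 211 kb. The next on the arm was from 4195113 to 4325236 (130 kb). It was followed by 2694696 to 2803400 (109 kb), 2392370 to 2500475 (108 kb), 1629656 to 1731913 (102 kb), 349361 to 449820 (100.5 kb) and 1049644 to 1149740 (100.1 kb). The remaining ones were from 3094708 to 3192938 (98.2 kb), 2294961 to 2392195 (97.2 kb) and 810776 to 903480 (92.7 kb). None of these 10 held the midpoint of a peak of either replicate. Of all 85 long stretches, 83 held no replicate 1 midpoint and 82 no replicate 2 midpoint, though nearly all replicate peaks meet a series-list peak, so this is no independent check. Of the 20 longest series-list stretches of V, 5 were on the left arm, 3 in the centre and 12 on the right arm. In the replicate lists, the longest stretch of V was not on the left arm. It was in the centre in replicate 1 (446 kb) and on the right arm in replicate 2 (347 kb).

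Within the left arm, the replicate lists placed their longest stretches in the same area. In replicate 1 the longest ran from 2281938 to 2670745 (389 kb), followed by 2827439 to 3192696 (365 kb), 4193835 to 4494793 (301 kb), 260859 to 484027 (223 kb) and 1744300 to 1943188 (199 kb). The longest in replicate 2 ran from 2295234 to 2614965 (320 kb), followed by 2827578 to 3088223 (261 kb), 4195448 to 4325022 (129.6 kb), 3906549 to 4029340 (123 kb) and 2682062 to 2803066 (121 kb). The first 3 of each replicate overlap one another in pairs. The replicate 1 stretches were not empty in the other lists. The longest of them held 7 series-list peaks and 4 replicate 2 peaks.

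Of the 10 longest series-list stretches, 5 fell between 2294961 and 3192938, an area singled out after its values were seen. Stretches of 97.2 and 98.2 kb form its left and right borders. Its low density and its high share of long stretches are therefore partly built in by the choice. Over these 898 kb the series list had 18 peaks, replicate 1 had 4 and replicate 2 had 10. That is 20.05, 4.45 and 11.1 peaks per Mb. Long stretches made up 93.9% of the area in the series list. Its few peaks were not all weak: series scores ran from 3.32 to 169.7 with a median of 10.97, and 6 of the 18 were met in both replicates. Replicate 1 scores there ran from 112 to 310 and replicate 2 scores from 62.4 to 1759.

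Close neighbours were fewer by count than in the centre. In the series list 168 left arm peaks, or 39.2%, had a neighbour within 1 kb, against 56.01% in the centre and 39.0% on the right arm. Conversely, 57 left arm peaks (13.3%) had none within 10 kb, against 7.21% in the centre and 24.0% on the right arm. When peaks under 2 kb apart were joined, the 429 peaks formed 271 groups, of which 192 were single peaks. Groups of 5 or more peaks held 67 left arm peaks, or 15.6%, against 32.8% in the centre and 17.5% on the right arm. Such shares can change with density alone. Those within 1 kb and in groups of 5 or more differed little between the arms. The groups of 5 or more were few, 10 on the left arm and 3 on the right arm, where the largest had 17 peaks. None of these shares was tested.

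The groups with most peaks had 10 members each. One was from 4498943 to 4509809, a span of 10.9 kb with series scores from 3.76 to 135. Of its 10 peaks, 8 met both replicates, which covered 8.51 kb of it in replicate 1 and 10.2 kb in replicate 2. The other was from 5843512 to 5852334 (8.82 kb), with scores from 2.97 to 115. It met both replicates in 2 of its 10 peaks, and replicate 1 covered 1.71 kb of it while replicate 2 covered 8.09 kb. The groups from 1149741 to 1158481 (8 peaks) and from 974809 to 981516 (7 peaks) reached scores of 221 and 156, and 5 and 6 of their peaks met both replicates. Next came 2 groups of 6 peaks each. The one from 5295949 to 5303204 had no score above 17.7 and was met by 5 peaks of replicate 2 and by none of replicate 1. The one from 5703532 to 5708585 reached a score of 100.5, and 3 of its peaks met both replicates.

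Peaks of the left arm were narrower than those of the centre in both replicates. The median width in replicate 1 was 1118 bp (interquartile range 890.5 to 1455 bp), against 1294 bp (1108 to 2023 bp) in the centre. In replicate 2 it was 1065 bp (932.5 to 1340 bp), against 1200 bp (995.5 to 1806.5 bp). The series-list median was 304 bp (223 to 452 bp), against 335 bp (230 to 524 bp). On the right arm the medians were 306.5 bp (series list), 1111 bp (replicate 1) and 1050 bp (replicate 2), close to those of the left arm.

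The test counted peaks wider than the median of all peaks of V in their list. In replicate 1, 37.7% of left arm peaks were wider, against 56.02% in the centre (Fisher's exact test, two-sided, adjusted p = 0.00271). In replicate 2 the shares were 41.99% and 53.7% (Fisher's exact test, adjusted p = 0.00653). The series list had 45.5% and 51.6%, which did not pass (Fisher's exact test, adjusted p = 0.0549). Against the right arm no list passed: its shares, in the same order as above, were 33.3%, 44.9% and 47.0% (Fisher's exact test, adjusted p = 0.748 in each). Fisher's test also treats peaks as independent.

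**Figure D4:**
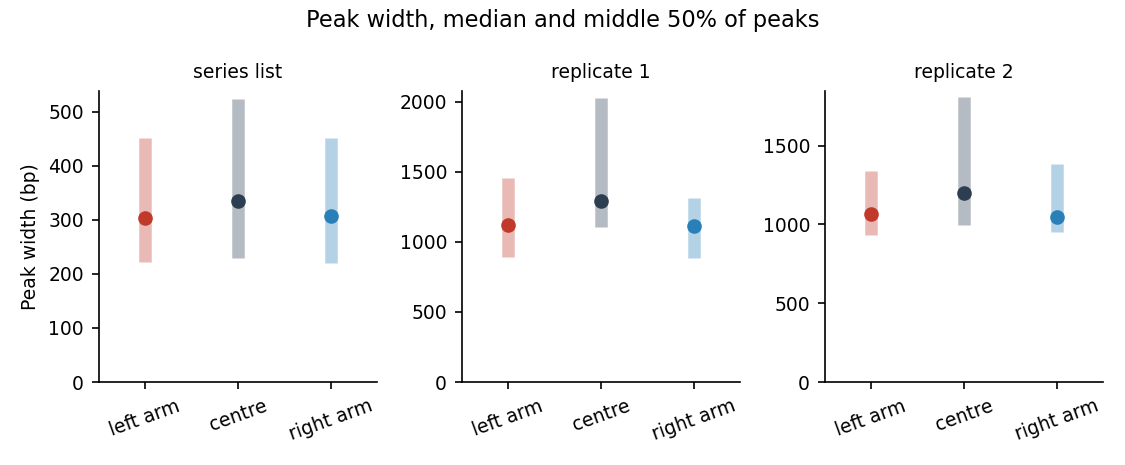
Peak width in bp in the left arm, centre and right arm of chromosome V, one panel per list with its own axis from 0. Dots are medians and bars the interquartile range; left arm medians of 304, 1118 and 1065 bp lie below those of the centre, 335, 1294 and 1200 bp.

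Few very wide peaks were on the left arm. Peaks of at least 4 kb made up 3 of 114 (2.63%) in replicate 1 and 8 of 231 (3.46%) in replicate 2, against 5.04% and 6.80% in the centre and 0 of 51 and 0 of 89 on the right arm. The widest of replicate 1 was from 4501615 to 4508688 (7074 bp, score 519), and replicate 2 had a peak over nearly the same bases, from 4501479 to 4508794 (7316 bp, score 1374). It was the second widest there. The widest of replicate 2 was from 1149389 to 1157470 (8082 bp, score 3100), where replicate 1 had its second widest, from 1152726 to 1157074 (4349 bp, score 1354). The widest peak of each replicate held 7 series-list peaks.

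The third widest differed between the replicates. In replicate 1 it was from 724419 to 728705 (4287 bp, score 274), met by a replicate 2 peak of score 503. In replicate 2 it was from 1470728 to 1476676 (5949 bp, score 3100), met by a replicate 1 peak of score 2677. The 5 widest series-list peaks were from 1153072 to 1155592 (2521 bp, score 112), 4963924 to 4966288 (2365 bp, score 123), 1473632 to 1475401 (1770 bp, score 125), 4186929 to 4188316 (1388 bp, score 30.9) and 1150799 to 1152159 (1361 bp, score 221). All 5 met both replicates, and 3 of them lay under 1 of the 3 widest peaks of replicate 2. Among left arm peaks, 23.7% in replicate 1 and 21.2% in replicate 2 held 2 or more series-list peaks, against 37.5% and 31.4% in the centre, which was not tested.

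Support in the replicates was close to that of the whole series. Of the 429 series-list peaks of the left arm, 151 met a peak of both replicates by at least 1 bp, which is 35.2% (exact Clopper-Pearson 95% interval 30.7 to 39.9%), against 38.4% over all chromosomes. A further 156 (36.4%) met replicate 2 alone, 2 (0.47%) met replicate 1 alone and 120 (27.97%) met neither. In the centre 40.03% (37.5 to 42.6%) met both, and on the right arm 28.5% (22.4 to 35.3%). The left arm did not pass against the centre (Fisher's exact test, two-sided, adjusted p = 0.145) or the right arm (Fisher's exact test, adjusted p = 0.170). With the arm ending at 5 Mb the difference from the centre turned from -4.83 to 0.57 percentage points. With replicate 2 alone as the criterion, 71.6% of left arm peaks were met, against 72.4% in the centre and 54.5% on the right arm (Fisher's exact test, unadjusted p = 4.33e-05 for the right arm).

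Better-scoring peaks had more support, as a description within the series list. All left arm peaks of both replicates met a series-list peak, so the lists are not independent. The 151 peaks with both replicates behind them scored 86.2 at the median and were 505 bp wide. Those met in replicate 2 alone scored 24.2 at 304 bp, and those met in neither scored 7.18 at 211 bp. Peaks of V were divided into 4 steps of equal size by score. In the lowest step 15 of 96 left arm peaks met both replicates (15.6%), in the next 11 of 95 (11.6%), then 34 of 122 (27.9%) and in the highest 91 of 116 (78.4%, 69.9 to 85.5%). The centre had 20.5%, 18.9%, 39.3% and 84.3% in the same steps, so its values were higher at each step. The right arm had 9.52%, 3.77%, 17.3% and 79.2%, lower than the left arm in all but the highest step. No peak of the highest step was missed by both replicates, on the left arm, in the centre or on the right arm. Among the better-scoring 50% of the series list, 52.3% of left arm peaks met both replicates, against 61.8% in the centre (Fisher's exact test, unadjusted p = 0.0115). On the right arm it was 48.1% (Fisher's exact test, unadjusted p = 0.486).

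**Figure D5:**
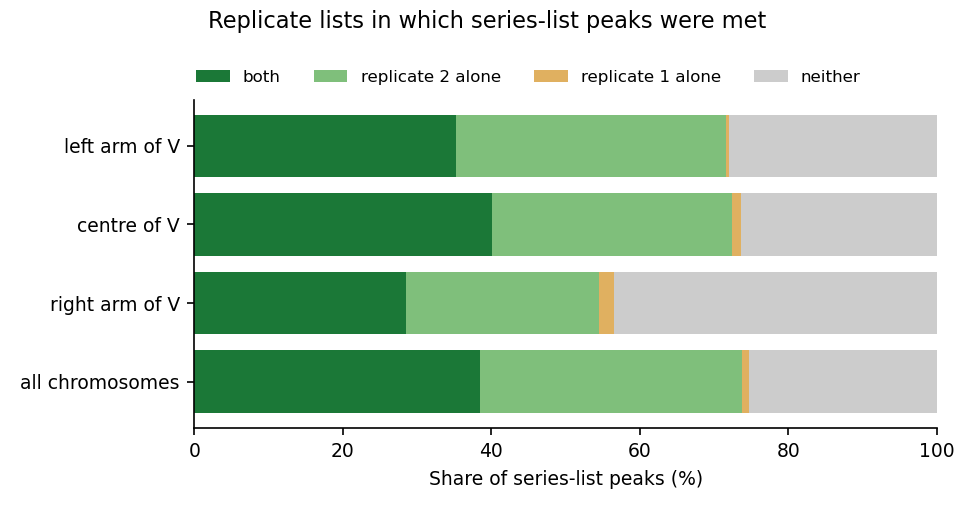
Shares of series-list peaks, in percent, that met a peak of both replicates, of replicate 2 alone, of replicate 1 alone or of neither, for the left arm (429 peaks), centre and right arm of chromosome V and for all chromosomes. Peaks met in both make up 35.2% on the left arm, 40.03% in the centre, 28.5% on the right arm and 38.4% over all chromosomes.

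Between the replicates, 112 of the 114 left arm peaks of replicate 1 met a replicate 2 peak (98.2%, 93.8 to 99.8%), against 97.8% over all chromosomes. In the other direction, 108 of 231 did (46.8%, 40.2 to 53.4%), against 52.4% (48.4 to 56.4%) in the centre, 55.1% (44.1 to 65.6%) on the right arm and 50.4% over all chromosomes. Scores of the 123 replicate 2 peaks that met none had a median of 117, and scores of the others 1071. Left arm peaks of the 2 replicates formed 106 mutual best pairs by overlap, and log10 scores within pairs had a Pearson r of 0.68 and a Spearman rho of 0.75. The same measures were 0.75 and 0.80 over 320 pairs in the centre, and 0.43 and 0.58 over 46 pairs on the right arm. These are descriptions across peaks, which share the 2 libraries. In 78 of the 106 pairs (73.6%) the replicate 2 peak was the wider one, against 75.9% of pairs in the centre and 80.4% on the right arm.

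By score, the series list and the replicate lists gave different calls, and the difference between lists was not tested. In the series list 55.5% of left arm peaks scored above the median of V (17.1), against 47.9% in the centre (Fisher's exact test, two-sided, adjusted p = 0.0131). In replicate 1 the shares were 51.8% and 49.9%, and in replicate 2 they were 48.5% and 50.2%, where the direction turned (Fisher's exact test, adjusted p = 0.748 in each). The right arm shares were 52.5%, 47.1% and 52.8% in the same order of lists, and none passed against the left arm (Fisher's exact test, adjusted p = 0.748 in each). The left arm medians of the series score and of the replicate scores were 20.3, 191 and 329, and those of the centre were 15.9, 188 and 348. Of left arm peaks, 14.2% (11.1 to 17.9%) belonged to the highest-scoring 10% of the whole series list, against 9.26% in the centre and 15.0% (10.4 to 20.7%) on the right arm. For the left arm, centre and right arm, the same shares were 6.14%, 8.68% and 5.88% in replicate 1, and 5.19%, 10.2% and 6.74% in replicate 2. A score of 3100 or more, where scores are tied, was reached in replicate 2 by 6 of 231 left arm peaks, 52 of 618 in the centre and 2 of 89 on the right arm. In replicate 1 it was reached by 2 of 114, 9 of 357 and 0 of 51. With the arm ending at 5 Mb, the series-list difference from the centre in better-scoring peaks grew from 7.60 to 12.5 percentage points.

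The best-scoring site of the left arm was from 531953 to 532541, with a series score of 224, a replicate 1 score of 874 and a replicate 2 score of 2725. The second, from 1150799 to 1152159, scored 221 and lay under peaks of score 3100 in both replicates. The third, from 3192939 to 3193573, had a series score of 216, with 372 in replicate 1 and 2168 in replicate 2. It lies directly after the eighth longest peak-free stretch, at the right edge of the sparse area from 2294961. The fourth, from 3803121 to 3803697, scored 215, with 1283 in replicate 1 and 2056 in replicate 2.

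The fifth, from 5064642 to 5065800, scored 210 and had 2806 and 3100 in replicates 1 and 2. The sixth, from 534090 to 534793, scored 202, with 380 and 2453, and lies within 2 kb of the first. The seventh, from 1743350 to 1743948, scored 200.3, with 558 and 2807. Replicate 1 scores of these first 7 sites ran from 372 to 3100.

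The eighth to eleventh sites scored from 187 to 193 in the series list. They were from 629251 to 629690 (591 in replicate 1 and 1793 in replicate 2), 1285581 to 1286310 (418 and 2211), 2259613 to 2260117 (387 and 1488) and 4192825 to 4193480 (547 and 1894). The last of these lies shortly before the 130 kb stretch. The twelfth, from 8473 to 9556, scored 186 in the series list and 3100 in both replicates, and is the site of the 12 closest to the chromosome end. Of the 12, 2 reached the tied score of 3100 in both replicates.

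The strongest peaks without replicate support scored far lower. The highest-scoring left arm peak that met neither replicate was from 5778238 to 5778473 (236 bp), with a series score of 30.2. The next were from 1167894 to 1168142 (249 bp, 27.9) and from 1537486 to 1537726 (241 bp, 25.4).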

How the data were processed

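Peak lists in GFF3 format were used, 1 for each of the 2 ZFP-1 ChIP samples and 1 for the series. Per the file headers the coordinates are on WormBase WS220, and per the file contents the caller was MACS for the replicates and MACS v2 for the series list. BWA and ce10 are named in the submitters' processing notes. Pooling, use of the input and the scale of the score that the authors deposited for each peak are not given in the sources used here, and other per-peak values in the files are starts and ends. Peaks were assigned to parts of V by midpoint. Densities have exact Poisson and shares exact Clopper-Pearson 95% intervals, which cover counting error only. Density was tested by exact two-sided binomial tests and shares by Fisher's exact test, with Benjamini-Hochberg adjustment over 20 tests. Computation used scipy 1.17.1, pandas 2.3.3 and numpy 2.4.6 under Python 3.11.15. Scripts were tested on simulated data, and overlaps against bedtools 2.31.1. Sites named are the 12 best-scoring peaks met in both replicates, the 5 widest (3 per replicate), the 10 longest stretches (5 per replicate), the 5 groups with most peaks (and 1 tied with the last), the densest and sparsest 500 kb, the peaks next to the limit and the 3 best-scoring without support; others are marked as chosen after their values were seen. Members, windows and rules were chosen with earlier results of these data known. A gene table on WBcel235, another build, was not used.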

Additional observations from a re-analysis of the deposited data

How the results depend on the processing

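Over 10 results, 43 of 62 alternatives left the direction and the side of an unadjusted p of 0.05 as they were, or stayed within 1 SD of the replicates. Density kept both in all 11 alternatives for each comparison. Replicate lists used singly gave ratios of 0.57 to 0.67 against the centre and 1.67 to 1.94 against the right arm. With 1 replicate required, the difference in support ran from -5.64 (Fisher's exact test, unadjusted p = 0.0375) to -0.86 percentage points against the centre, and from 5.16 to 17.1 against the right arm. Against the centre, the difference of -4.83 turned to 0.77 with 50% reciprocal overlap and to 0.57 with the left arm ending at 5 Mb, and became -9.54 in the better-scoring 50% of the list. Against the right arm, the difference of 6.70 became 8.73 with 50% of the series-list peak covered. It became 10.9 with the arm ending at 5 Mb and 7.97 with the right arm from 16 Mb. Their unadjusted p-values were 0.0345, 0.0140 and 0.0430 in that order (Fisher's exact test). They were not adjusted, and the main test did not pass after adjustment (Fisher's exact test, adjusted p = 0.170). For wide peaks the single lists gave -18.3 to -11.7 against the centre and -2.95 to 4.39 against the right arm. In the series list the differences were -6.17 (Fisher's exact test, unadjusted p = 0.0274, adjusted p = 0.0549) and -1.55, and with the arm ending at 5 Mb -3.26 (unadjusted p = 0.296) and 0.50. For better-scoring peaks the single lists gave -1.68 to 1.89 against the centre and -4.32 to 4.70 against the right arm, while the series list's 7.60 and 2.98 became 12.5 and 7.5 with the arm ending at 5 Mb. The share in long stretches, 71.1%, became 80.6% in the better-scoring 50%, 82.6% from 10 kb and 42.6% from 50 kb, and was 78.7% to 90.2% in the single lists. Covered shares were 2.64% to 5.35% there. The causes were not tested. No paired analysis was possible because both ChIP replicates belong to 1 group, and peak lists of the inputs were not analysed here. Depth is unknown.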
